A study of Mus musculus with 63 samples.

Results

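Mfn2AA hearts were compared with hearts of the tet-off driver line at P1 (postnatal day 1), a comparison that uses 8 of the 63 libraries of the series. The 3 Mfn2AA hearts overexpressed human Mfn2 with the substitutions T111A and S442A, and the 5 reference hearts came from the tet-off control line. Members were all libraries whose names in the count table carry these 2 groups at P1, and all were prepared and analysed in 1 library batch. All mice were on the FVB/N background. The same 2 genotypes were also sequenced in other hearts at P21 (6 Mfn2AA and 5 tet-off) and at 5 weeks (4 Mfn2AA and 3 tet-off). Mfn2wt hearts, which overexpressed the unsubstituted human protein (4 at P1), and nontransgenic hearts (6 at P1) entered the P1 fit to estimate the spread between hearts. The labels name neither the promoter that drives the transgene nor the sex of the mice, and they do not state whether Mfn2AA hearts also carry the driver. The P1 tissue is labelled as whole heart, whereas the extraction protocol speaks of ventricular apexes. The P21 and 5-week tissue is labelled as left ventricle, so a difference between P1 and a later age cannot be told apart from a difference between these tissues. Each title carries its own animal number, so the hearts were taken as separate animals, and p-values measure the spread between these samples.

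Mitofusin 2 is a GTPase of the outer mitochondrial membrane that tethers and fuses mitochondria. In damaged mitochondria the kinase PINK1 phosphorylates it, and phosphorylated Mfn2 can then serve as a docking site for Parkin, the ubiquitin ligase that marks mitochondria for removal by autophagy (mitophagy). The alanine substitutions in Mfn2AA remove the residues that PINK1 phosphorylates. Around birth the mouse heart shifts from carbohydrate towards fatty acid use while its mitochondria mature, and P1 lies at the start of that shift.

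The 8 libraries held 9902969 to 14390869 counted reads in Mfn2AA hearts and 4557894 to 14844064 in tet-off hearts, so a gene with few reads is measured least well in the smallest tet-off library. Levels are given as CPM, reads of a gene per 1e6 counted reads after scaling between libraries, in the order of hearts 1 to 3 for Mfn2AA and 1 to 5 for tet-off. Correlations of log2 CPM between any 2 of the 8 libraries lay between 0.9696 and 0.989. Mitochondrially encoded genes took 2.73% ± 0.32 of counts in Mfn2AA hearts and 3.73% ± 1.28 in tet-off hearts (SD, n = 3 and 5; two-sided exact permutation test, adjusted p = 0.75 over 4 library measures). The ribosomal RNA gene Rn45s took 4.86% ± 1.66 in Mfn2AA hearts and 5.71% ± 3.50 in tet-off hearts (SD, n = 3 and 5; exact permutation test, adjusted p = 0.857). The Rn45s share followed the first number of the sample titles: Mfn2AA heart 3 and tet-off hearts 4 and 5, which share one such number, had 6.78%, 9.47% and 9.59%, and the other 5 libraries had 2.66% to 3.90%. The labels do not say what the number marks. The library of tet-off heart 2 stood apart: it held the most transgene signal of its group (155 FPKM) and the most liver RNA, with Alb (albumin) at 158.9 CPM. Alb was at 33.19, 4.301 and 0 CPM in Mfn2AA hearts and at 0.1296 to 3.33 CPM in the other tet-off hearts, so Mfn2AA heart 1 was the next highest of the 8 and lay above the other 4 tet-off hearts.

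The human transgene separated the groups. Its level, in fragments per kilobase of transcript and sequencing depth (FPKM), was 1878, 1959 and 2438 in the 3 Mfn2AA hearts, and 19.96, 155, 7.386, 39.81 and 39.42 in the 5 tet-off hearts. Every Mfn2AA heart lay above every tet-off heart, and the tet-off value of 155 came from heart 2. The means were 2092 ± 303 FPKM in Mfn2AA hearts and 52.3 ± 59.0 FPKM in tet-off hearts (SD, n = 3 and 5). The ratio of these means was 40.0, and the difference of mean log2(FPKM + 1) was 5.94 (two-sided exact permutation test, p = 0.0179, the smallest that 56 regroupings allow). At P1 the single human Mfn2 row also read 264 to 494.2 FPKM in Mfn2wt hearts and 1.79 to 97.63 FPKM in nontransgenic hearts. Signal in hearts without a transgene therefore overlapped the tet-off range. How reads were divided between human and mouse Mfn2, which are close in sequence, is not given in the sources used here.

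The mouse genes of the PINK1, Mfn2 and Parkin axis did not pass the test. Mouse Mfn2 had 817.8, 792.9 and 942.2 CPM in Mfn2AA hearts and 807.1, 727.4, 955.1, 764.2 and 1016 CPM in tet-off hearts. The groups overlapped, with a log2 fold change of -0.01 ± 0.12 (Mfn2AA minus tet-off, ± SE throughout). Pink1, the kinase itself, had 169.1, 193.1 and 174.6 CPM in Mfn2AA hearts and 163.2, 166.8, 153.9, 167.9 and 177.5 CPM in tet-off hearts (log2 fold change 0.11 ± 0.10). Park2, which encodes Parkin, had 3.96 to 4.695 CPM in Mfn2AA hearts and 1.815 to 4.254 CPM in tet-off hearts. Its ranges overlapped, and its log2 fold change was 0.45 ± 0.24 at an unadjusted p of 0.0729 in the edgeR quasi-likelihood fit. Mfn1, the second mitofusin, had a log2 fold change of -0.01 ± 0.09.

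**Figure D1:**
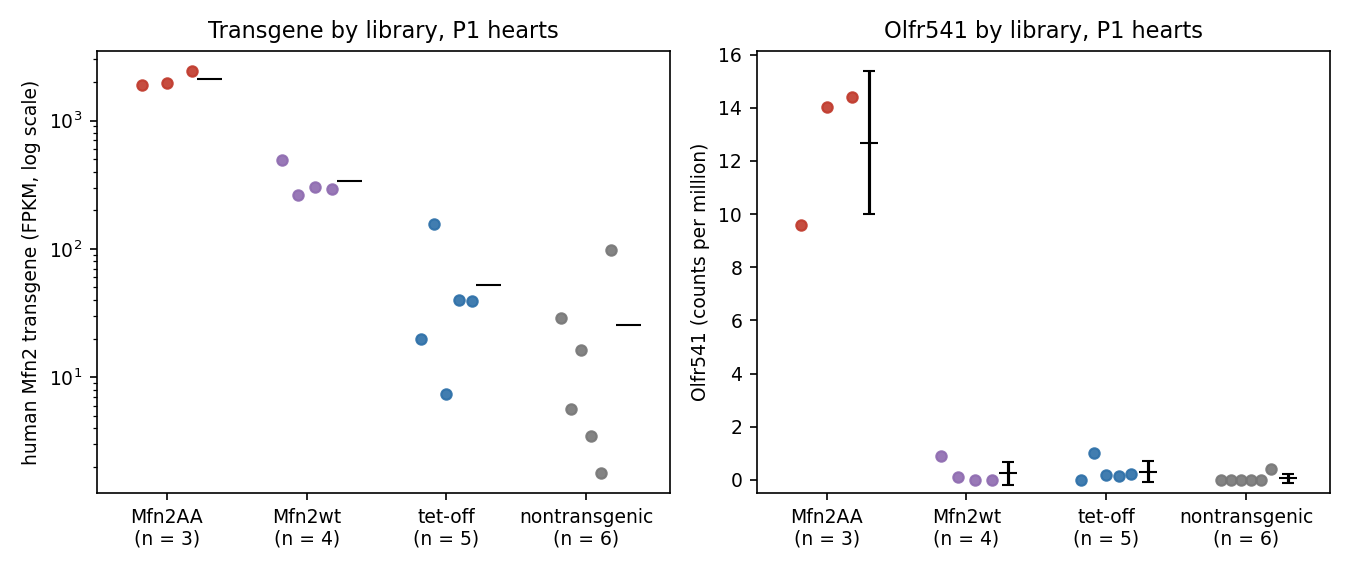
Human transgene level (left, FPKM on a log axis, with a dash at the mean) and Olfr541 level (right, CPM, mean ± SD), with 1 point per heart, for Mfn2AA (3), Mfn2wt (4), tet-off (5) and nontransgenic (6) hearts at P1. The Mfn2AA hearts sit between 1878 and 2438 FPKM and between 9.586 and 14.42 CPM, above every tet-off heart in both panels.

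Among the mouse genes, 1 passed the test. Of 13653 genes tested in the edgeR quasi-likelihood fit of the 18 P1 libraries, 1 (0.00732%) had a Benjamini-Hochberg adjusted p under 0.05, and it was higher in Mfn2AA hearts. It was Olfr541, an olfactory receptor gene on chromosome 7 at 140704253 to 140705191 (mm10, plus strand), listed in the deposited table as a single exon. Olfactory receptors are G protein-coupled receptors best known from the nose.

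Olfr541 had 147, 150 and 142 reads in Mfn2AA hearts, against 0, 7, 3, 1 and 2 reads in tet-off hearts. In CPM these were 9.586, 14.03 and 14.42 in Mfn2AA hearts and 0, 1.027, 0.195, 0.1296 and 0.2121 in tet-off hearts. All 3 Mfn2AA hearts were far above all 5 tet-off hearts, and the highest tet-off value again came from tet-off heart 2. The log2 fold change was 5.35 ± 0.56 (edgeR adjusted p = 6.89e-05). DESeq2 gave 5.34 ± 1.46 with an adjusted p of 0.0856, so its test did not call the gene. The other P1 groups had 0 to 13 reads (Mfn2wt) and 0 to 3 reads (nontransgenic).

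The 2 neighbouring receptor genes Olfr45 and Olfr539 resemble Olfr541 in coding sequence. Single reads may therefore be split between them and Olfr541, and their values are uncertain. Over the coding sequence Olfr541 matched Olfr45 at 91.5% and Olfr539 at 91.6% of 939 aligned positions, with longest shared runs of 123 and 94 bases. The final 60 coding bases, stop codon included, are shown to make that likeness visible, from GENCODE transcripts on GRCm38 (mm10), plus strand, 5′ to 3′, with capitals at bases that differ from Olfr541. They lie at chr7:140705132-140705191 (Olfr541), chr7:140691783-140691842 (Olfr45) and chr7:140668189-140668248 (Olfr539).
Olfr541: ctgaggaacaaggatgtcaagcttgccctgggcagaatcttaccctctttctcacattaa
Olfr45: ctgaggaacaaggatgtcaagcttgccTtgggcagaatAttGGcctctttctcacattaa
Olfr539: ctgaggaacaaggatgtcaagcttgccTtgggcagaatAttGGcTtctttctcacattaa
Olfr45 differed from Olfr541 at 4 of these 60 bases and Olfr539 at 5.

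Olfr539 had 6, 6 and 6 reads in Mfn2AA hearts and 0 reads in each of the 5 tet-off hearts. Its pooled level in Mfn2AA hearts was 7.38-fold a floor of 3 reads over the tet-off group. That ratio leaves out the counting error of the Mfn2AA reads and any reads split with Olfr541. Olfr45 had 2, 2 and 1 reads in Mfn2AA hearts and 0, 2, 0, 0 and 0 in tet-off hearts, too few to compare. Neither passed the filter on low counts. Limma on FPKM, which uses another filter, called 7 of 13101 rows (0.0534%), all higher in Mfn2AA hearts: the transgene, these 3 receptors, Baiap2, Fbxo31 and Tsc22d3.

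Other genes within 500 kb of Olfr541 were looked at because they share its position. Of 45 annotated neighbours in the count table, those tested numbered 16, and none passed the adjusted edgeR test. At an unadjusted p under 0.05, which 8.35% of all tested genes had, 1 neighbour lay above 0 and 1 below. Zfp941, a zinc finger gene, had 41, 33 and 20 reads in Mfn2AA hearts and 5, 14, 10, 10 and 11 in tet-off hearts (log2 fold change 1.13 ± 0.31, edgeR adjusted p = 0.335). Ifitm1, an interferon-induced transmembrane protein gene, had 12, 5 and 4 reads in Mfn2AA hearts and 9, 12, 13, 19 and 26 in tet-off hearts (-1.69 ± 0.42, edgeR adjusted p = 0.236).

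Olfr541 also had a higher mean in Mfn2AA hearts of both later ages, which are independent hearts (left ventricle). At P21 it had 184 to 479 reads in the 6 Mfn2AA hearts and 0 to 25 in the 5 tet-off hearts, and passed the test there (log2 fold change 6.08). The P21 comparison called 78 of 13585 genes (0.574%). At 5 weeks it had 12 to 123 reads in the 4 Mfn2AA hearts and 0 to 10 in the 3 tet-off hearts. In CPM these were 0.5525, 0.9803, 4.021 and 0.6411 in Mfn2AA hearts and 0.7515, 0 and 0 in tet-off hearts, so the groups overlapped. The log2 fold change of 2.52 ± 1.04 missed the threshold (edgeR adjusted p = 0.0802). The 5-week comparison called 4781 of 13661 genes (35%). Neither difference between ages passed a test for this gene.

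Across all tested genes the P1 difference was small. The median log2 fold change was -0.01, with quartiles of -0.13 and 0.12, and 168 genes had an absolute log2 fold change of at least 1. At an unadjusted p under 0.05 there were 721 genes (5.28%) with higher and 419 genes (3.07%) with lower levels in Mfn2AA hearts. Groups did not overlap in CPM for 342 genes (2.5%) on the higher and 245 genes (1.79%) on the lower side, 4.3% in all.

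**Figure D2:**
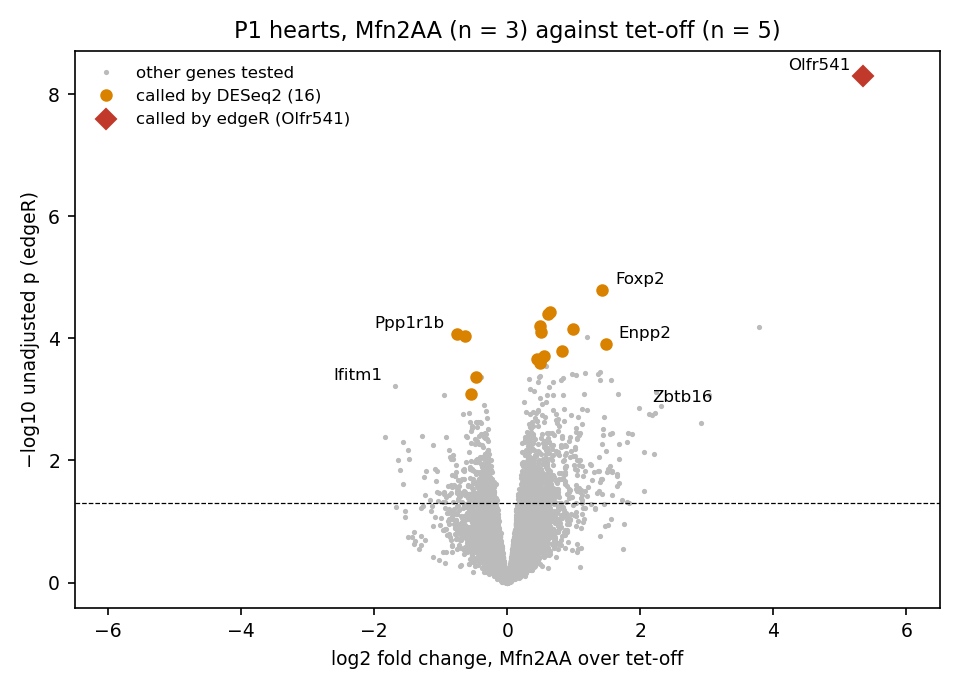
Log2 fold change (Mfn2AA minus tet-off, x axis) against the -log10 unadjusted p of the edgeR fit (y axis) for 13653 genes at P1, with the 16 genes called by DESeq2 and Olfr541 marked. Olfr541 lies alone at a log2 fold change of 5.35, while the quartiles of all genes are -0.13 and 0.12.

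DESeq2 on the same counts called 16 of 13018 genes (0.123%), 12 higher (0.0922%) and 4 lower (0.0307%) in Mfn2AA hearts, and none of them was called by edgeR, whose adjusted p for them lay between 0.11 and 0.25. Fold changes given for these genes are those of the edgeR fit. In 15 of the 16 the groups did not overlap, against 4.3% of all tested genes. Genes picked by p from the same hearts tend not to overlap, so this is no separate result. Foxp2, a forkhead transcription factor, had 5.543, 5.704 and 2.64 CPM in Mfn2AA hearts and 1.041, 1.467, 2.015, 2.074 and 1.697 CPM in tet-off hearts. Its log2 fold change was 1.43 ± 0.26 (DESeq2 adjusted p under 0.05). Enpp2, the secreted enzyme autotaxin that makes lysophosphatidic acid, had 9.455, 6.265 and 3.858 CPM in Mfn2AA hearts. In tet-off hearts it had 2.289, 1.614, 2.925, 2.593 and 2.121 CPM (log2 fold change 1.48 ± 0.32, DESeq2 adjusted p under 0.05). In both genes the Mfn2AA heart 3 was the lowest of its group and lay closest to the tet-off hearts.

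Tsc22d3, the glucocorticoid-induced leucine zipper gene, had 97.23, 117.8 and 87.12 CPM in Mfn2AA hearts. In tet-off hearts it had 54.32, 61.32, 68.9, 73.63 and 68.6 CPM (log2 fold change 0.62 ± 0.12, DESeq2 adjusted p under 0.05). Baiap2, an adaptor protein of the actin cytoskeleton, was even within the Mfn2AA group, at 22.37, 21.88 and 22.24 CPM. In tet-off hearts it had 11.45, 13.79, 13.78, 15.69 and 15.69 CPM (0.64 ± 0.12, DESeq2 adjusted p = 0.00737). Fbxo31, the substrate receptor of an SCF ubiquitin ligase, had 44.28, 54.98 and 50.46 CPM in Mfn2AA hearts and 31.01, 34.33, 31.4, 34.22 and 43.16 CPM in tet-off hearts (0.51 ± 0.12, DESeq2 adjusted p = 0.0499). These 3 genes were called by both DESeq2 and limma, and tet-off heart 5 came nearest to the Mfn2AA range for Fbxo31.

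The other higher genes were Olfr1033 (0.99 ± 0.20), Acer2, an alkaline ceramidase (0.82 ± 0.18), Ern1, the unfolded protein sensor IRE1 (0.56 ± 0.12), and Cdc42ep4, a Cdc42 effector (0.50 ± 0.10). They also included Rhobtb1 (0.50 ± 0.10), Itpr2, an inositol trisphosphate receptor that releases calcium from internal stores (0.49 ± 0.11), and Tmtc1 (0.45 ± 0.10). Acer2 was the single gene with overlapping groups, at 25.79 CPM in Mfn2AA heart 3 and 28.65 CPM in tet-off heart 4.

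Among the 4 lower genes, Lbh, a transcriptional cofactor of limb and heart development, had 791.6, 790 and 1027 CPM in Mfn2AA hearts and 1112, 1235, 1143, 1458 and 1387 CPM in tet-off hearts (-0.54 ± 0.14, DESeq2 adjusted p = 0.0259). Ppp1r1b, the protein phosphatase inhibitor DARPP-32, had 13.24, 14.49 and 20.61 CPM in Mfn2AA hearts. In tet-off hearts it had 23.31, 20.83, 29.25, 26.45 and 33.29 CPM (-0.75 ± 0.15, DESeq2 adjusted p under 0.05). Mina, a nuclear hydroxylase, and Carns1, the carnosine synthase, had log2 fold changes of -0.63 ± 0.13 and -0.46 ± 0.11. Every Mfn2AA heart lay below every tet-off heart in all 4.

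**Figure D3:**
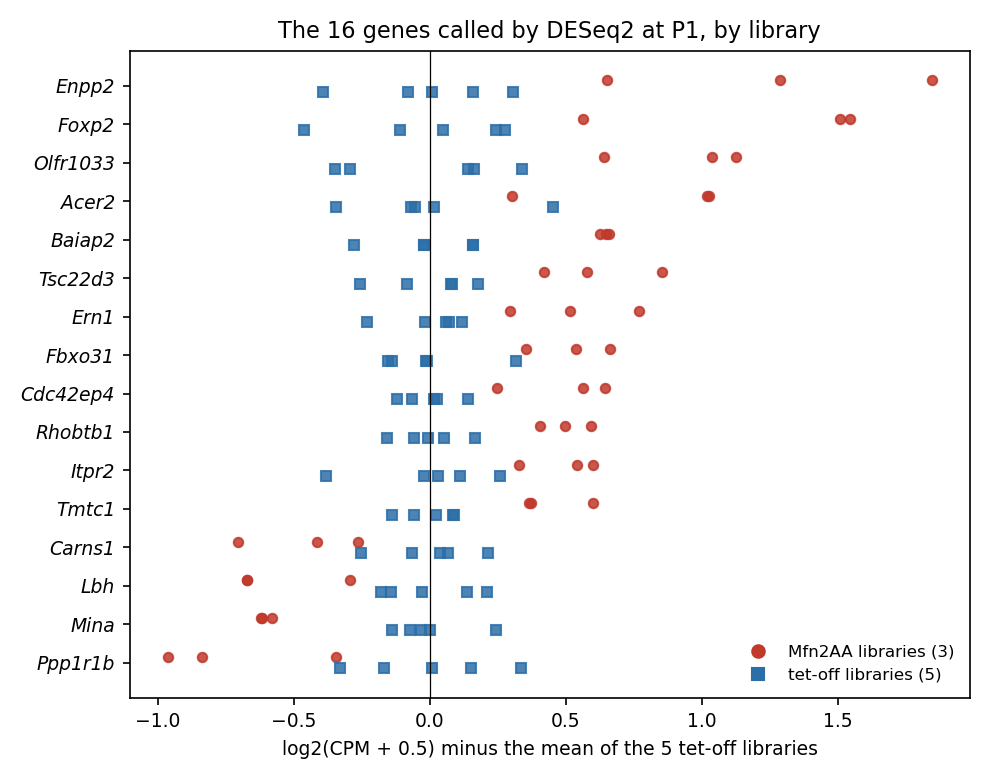
Log2(CPM + 0.5) of each heart minus the mean of the 5 tet-off hearts (x axis) for the 16 genes that DESeq2 called at P1 (rows), with Mfn2AA hearts and tet-off hearts in separate colours. Over the 12 higher genes the medians are 0.622, 0.716 and 0.48 in the 3 Mfn2AA hearts and -0.0967 to 0.149 in the tet-off hearts.

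In the plot of these genes by heart, the Mfn2AA heart 3 was the nearest of its group to the tet-off hearts on both sides, with a median of 0.48 over the 12 higher genes and -0.318 over the 4 lower genes. The other 2 Mfn2AA hearts stood at 0.622 and 0.716 over the higher and at -0.686 and -0.626 over the lower genes. Each of the 16 genes kept its direction in the edgeR fit when any 1 of the 8 libraries was left out. These genes were picked from the same libraries and mostly have groups that do not overlap, so a change of direction was hardly possible. The number that DESeq2 called did not hold: it was 0 without Mfn2AA heart 1, 0 without Mfn2AA heart 2 and 76 without Mfn2AA heart 3. It was 6 without tet-off heart 2, 35 without tet-off heart 3, and 12 to 13 without any 1 of the other tet-off hearts. Sex-linked genes summed to 119.1 CPM in Mfn2AA heart 3, against 405.9 and 432.6 CPM in Mfn2AA hearts 1 and 2. The part of sex in these counts was not tested.

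The control used also mattered for single genes. The comparisons with nontransgenic hearts share samples with the one described here, so their values are only set side by side. Foxp2 had a log2 fold change of 0.40 in Mfn2AA against nontransgenic hearts and -1.03 in tet-off against nontransgenic hearts, and Enpp2 had 0.32 and -1.16 in the same 2 comparisons. For Baiap2 the values were 0.86 and 0.22, and for Fbxo31 they were 0.61 and 0.10. Mfn2AA against nontransgenic hearts called 191 of 13653 genes (1.4%), and tet-off against nontransgenic hearts called 177 (1.3%).

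Endod1, a nuclease family gene known from earlier results of these data to separate the lines, had 113.8, 147.9 and 237.6 CPM in Mfn2AA hearts and 112.2, 142.7, 109, 112.7 and 129.4 CPM in tet-off hearts. Nontransgenic hearts had 9.568 to 20.59 CPM and Mfn2wt hearts 13.45 to 21.35 CPM, so Mfn2AA and tet-off hearts lay together above both other groups.

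Genes of mitochondrial energy production were described as groups. No member of the 43 gene lists examined passed the adjusted test at P1, by edgeR, DESeq2 or limma, so counts at an unadjusted p under 0.05 are given. The background for such counts is the 5.28% of all genes above 0 and 3.07% below 0. A fold change of a list is its median over tested members. The median over all genes was -0.01, and 51.6% of all genes lay below 0.

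All 81 tested nuclear genes of oxidative phosphorylation had fold changes below 0, yet by little: their median was -0.19, and 3 had an unadjusted p under 0.05. They comprised 36 subunits of complex I, the NADH dehydrogenase (median -0.18), 28 genes of complexes II to IV (-0.21) and 17 of ATP synthase (-0.20). Summed over the 81 genes, the level was 36724, 43349 and 44718 CPM in Mfn2AA hearts and 49086, 44691, 40063, 50356 and 51128 CPM in tet-off hearts. The groups overlapped: Mfn2AA heart 1 was the lowest of all, and the other 2 Mfn2AA hearts lay above tet-off heart 3. Without Mfn2AA heart 1 the median was -0.0976, with 72 of 81 genes below 0. The count at an unadjusted p under 0.05 was 0 without Mfn2AA heart 1 or 2, 5 without Mfn2AA heart 3, 11 without tet-off heart 3, and 1 to 3 without any 1 of the other tet-off hearts. In Mfn2AA against nontransgenic hearts 65 of the 81 genes lay below 0 and 25 had such a p, with a median of -0.254. On either side of 0, 2433 of all 13653 genes had such a p there, against 1140 in the comparison with tet-off hearts.

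The 3 members with the lowest p were Cox8a, a subunit of cytochrome oxidase, Uqcrb, a subunit of complex III, and Ndufb3 of complex I. Cox8a had 430.5, 515.1 and 580.9 CPM in Mfn2AA hearts and 593.8, 592.5, 534.7, 874.6 and 712 CPM in tet-off hearts (-0.38 ± 0.17, unadjusted p = 0.0322 in edgeR). Uqcrb had 48.65, 50.77 and 60.31 CPM in Mfn2AA hearts and 72.64, 102.8, 72.28, 64.3 and 70.3 CPM in tet-off hearts (-0.52 ± 0.24). Only for Uqcrb did the groups not overlap. Core subunits such as Ndufs1 (-0.14 ± 0.11), Sdha (-0.09 ± 0.13) and Atp5a1 (-0.07 ± 0.13) had values close to their errors.

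The 13 mitochondrially encoded genes, which code for further subunits of the same complexes, also all lay below 0, with a median of -0.55 and 1 member at an unadjusted p under 0.05. Their summed level was 23080, 25000 and 31010 CPM in Mfn2AA hearts and 27520, 55410, 36510, 41380 and 26540 CPM in tet-off hearts. Tet-off heart 2, the library with the most liver RNA, had the highest sum, and 2 tet-off hearts fell within the Mfn2AA range. mt-Nd1, a complex I subunit, had 3572, 3467 and 4149 CPM in Mfn2AA hearts and 5091, 6815, 5015, 6059 and 4550 CPM in tet-off hearts (-0.56 ± 0.26, unadjusted p = 0.0435 in edgeR), without overlap.

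Most genes that build mitochondria also lay slightly below 0. Of 52 genes of the mitochondrial ribosome, which translates the mitochondrially encoded subunits, 49 lay below 0 (median -0.16) and 6 (11.5%) were lower at an unadjusted p under 0.05. Of 30 genes of mitochondrial protein import and folding, 28 lay below 0 (median -0.19) and 3 were lower at that level. Without Mfn2AA heart 1 the medians were -0.09 for the mitochondrial ribosome and -0.12 for import and folding, and in Mfn2AA against nontransgenic hearts they were -0.08 and -0.01. One of the 3 import genes was Timm23, the channel of the inner membrane, with 144.2, 143.1 and 154.1 CPM in Mfn2AA hearts and 207.3, 168.5, 144.9, 214.7 and 178.3 CPM in tet-off hearts (-0.31 ± 0.13). Regulators of mitochondrial biogenesis had a median of 0.00 over 25 genes. Ppargc1a, the coactivator PGC-1 alpha, had a log2 fold change of 0.07 ± 0.09, and Tfam, which packages mitochondrial DNA, -0.19 ± 0.10.

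Genes of mitochondrial dynamics and removal were near 0. The 24 genes of fusion, fission and transport had a median of -0.08, and none had an unadjusted p under 0.05. Opa1, which fuses inner membranes, had -0.06 ± 0.09, and Dnm1l, the fission GTPase, -0.17 ± 0.08. The 22 mitophagy genes had a median of 0.01. One of them, Sqstm1, the cargo receptor p62, had an unadjusted p under 0.05, with 212, 231.4 and 194.5 CPM in Mfn2AA hearts and 161.5, 171.8, 186.4, 195 and 179.1 CPM in tet-off hearts (0.25 ± 0.11). Of 32 autophagy and lysosome genes (median 0.07) only the kinase gene Ulk2 did so (0.28 ± 0.11).

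Fuel genes were near 0 as well. The 33 genes of fatty acid uptake and oxidation had a median of 0.02, the 35 of glycolysis and glucose use -0.06 and the 25 of the citric acid cycle -0.07. Acadm, a fatty acid dehydrogenase, had -0.05 ± 0.14, Cpt1b, the muscle carnitine transferase, 0.04 ± 0.15, and the glucose transporters Slc2a1 and Slc2a4 had 0.17 ± 0.14 and -0.06 ± 0.10. Ucp2, an inner membrane carrier of the uncoupling protein family, was the exception at the unadjusted level. It had 557, 498.2 and 439.8 CPM in Mfn2AA hearts and 339, 355.6, 429.5, 212.6 and 301.9 CPM in tet-off hearts (0.60 ± 0.16, unadjusted p = 0.000839 in edgeR), without overlap.

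**Figure D4:**
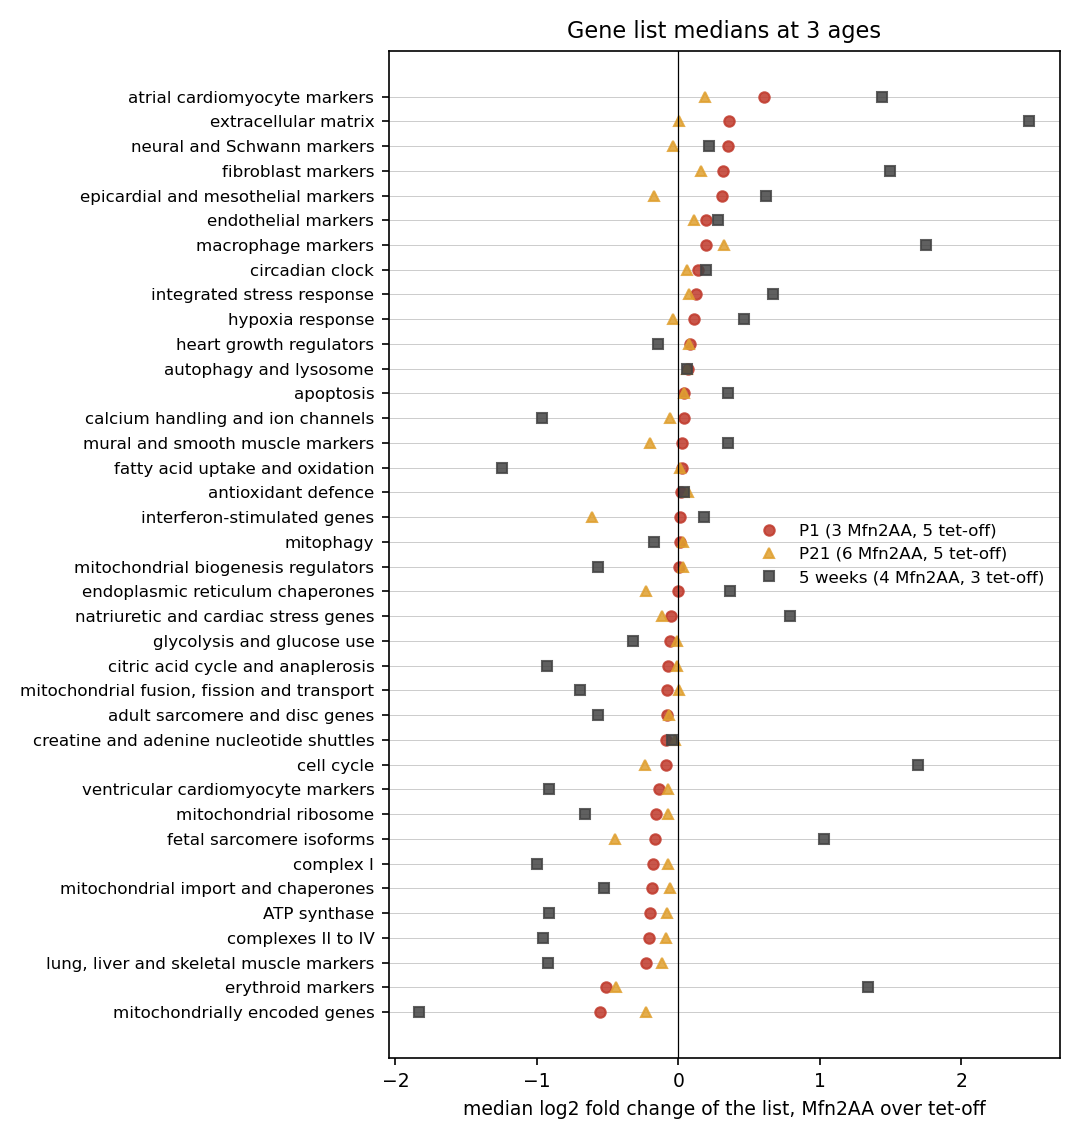
Median log2 fold change (Mfn2AA over tet-off, x axis) of 38 gene lists with at least 5 tested members (rows), leaving out the sex-linked, immediate early and histone genes and a list put together after values had been seen, at P1, P21 and 5 weeks (circles, triangles and squares). Among the lists plotted, the mitochondrially encoded genes lie lowest at P1 (-0.55) and the atrial cardiomyocyte markers highest (0.60), whereas at 5 weeks the matrix genes reach 2.48.

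Genes of cellular stress were examined next. Of 28 genes of the integrated stress response, 3 lay above 0 and 1 below at an unadjusted p under 0.05 (14.3%, against 8.35% of all genes), with a list median of 0.12, or 0.06 without Mfn2AA heart 1. Ddit4, an inhibitor of mTORC1 signalling, had 46.69, 62.74 and 33.2 CPM in Mfn2AA hearts and 32.05, 34.18, 32.44, 31.24 and 28.84 CPM in tet-off hearts (0.58 ± 0.13, unadjusted p = 0.000285 in edgeR). Its Mfn2AA values spanned a wide range, and the lowest fell within the tet-off range. Trib3, a pseudokinase induced by ATF4, had 3, 4.769 and 3.858 CPM in Mfn2AA hearts and 1.665, 1.32, 1.82, 2.722 and 2.227 CPM in tet-off hearts (0.96 ± 0.27). Atf4 itself (-0.06 ± 0.10) and the mitochondrial stress cytokine Gdf15 (0.14 ± 0.34) had values within their errors of 0.

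Of 18 circadian clock genes, 5 lay above 0 and 1 below at an unadjusted p under 0.05 (33.3%, against 8.35% of all genes). The list median was 0.14, or 0.04 in Mfn2AA against nontransgenic hearts. Per2, a repressor of the clock, had 42.84, 51.8 and 46 CPM in Mfn2AA hearts and 29.76, 25.52, 29.64, 46.93 and 27.89 CPM in tet-off hearts (0.55 ± 0.20). Per1 had 124.5, 127.6 and 57.06 CPM in Mfn2AA hearts and 77.63, 56.04, 59.48, 79.98 and 70.41 CPM in tet-off hearts (0.59 ± 0.22). For Per1 the Mfn2AA hearts 1 and 2 were high, and Mfn2AA heart 3 lay among the tet-off hearts. Nr1d1, the repressor REV-ERB alpha, was the member below 0 (-0.31 ± 0.14). The hour at which hearts were taken is not in the labels.

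Further stress lists held few genes with low p-values. The 24 tested antioxidant genes had a median of 0.02, with Ucp2 as the 1 member at an unadjusted p under 0.05, and the 21 apoptosis genes a median of 0.04. In the apoptosis list that 1 member was Cdkn1a, the cell cycle inhibitor p21, with 42.84, 54.7 and 45.89 CPM in Mfn2AA hearts and 34.96, 36.82, 47.39, 33.19 and 39.87 CPM in tet-off hearts (0.30 ± 0.13). None of the 20 endoplasmic reticulum chaperone genes (median 0.00) had such a p in edgeR. Of 19 hypoxia genes 3 lay above 0 at that level (15.8%, median 0.11). Egln3, an oxygen-sensing prolyl hydroxylase, had 36.06, 41.05 and 32.8 CPM in Mfn2AA hearts and 34.55, 24.64, 35.04, 21.26 and 22.37 CPM in tet-off hearts (0.41 ± 0.14). Of 24 interferon-stimulated genes (median 0.01) 2 lay below 0 at that level, and of 20 immediate early genes (median 0.17) 1 above, Klf6 (0.29 ± 0.10).

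Genes of the contractile apparatus and of cardiac stress did not follow 1 pattern. Of 15 fetal sarcomere genes 3 were below 0 at an unadjusted p under 0.05 (20%). Myh7, the fetal myosin heavy chain in mouse ventricle, had 5232, 4770 and 7214 CPM in Mfn2AA hearts and 4115, 7181, 10170, 12070 and 9381 CPM in tet-off hearts (-0.58 ± 0.26), with overlap. Acta2, smooth muscle actin, had -0.84 ± 0.29, while Myh6, the adult myosin, had 0.07 ± 0.19 and Tnni3, the adult troponin I, -0.14 ± 0.12. Against nontransgenic hearts, Acta2 had 0.36 in Mfn2AA hearts and 1.20 in tet-off hearts (edgeR adjusted p = 0.0138 for the latter). The fetal sarcomere median was -0.17, but 0.13 in Mfn2AA against nontransgenic hearts. For the natriuretic and cardiac stress list these medians were -0.05 and 0.19. Myh7 lay below 0 under all 22 alternative settings. The natriuretic peptide genes Nppa (0.34 ± 0.57) and Nppb (-0.50 ± 0.43) had errors near the size of their values. Of 26 genes of calcium handling and ion channels 3 were above 0 and 1 below at that level. The pacemaker channel Hcn4 had 12.91, 12.34 and 7.006 CPM in Mfn2AA hearts and 4.787, 3.08, 6.695, 8.167 and 4.772 CPM in tet-off hearts (0.95 ± 0.29).

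Growth genes lay on both sides of 0. Of 38 cell cycle genes 31 lay below 0 (median -0.09, but 0.01 in Mfn2AA against nontransgenic hearts) and 4 were lower at an unadjusted p under 0.05, among them Ccnb1, cyclin B1 of mitosis, with 27.26, 26.93 and 24.17 CPM in Mfn2AA hearts and 38.5, 29.48, 28.08, 42 and 31.17 CPM in tet-off hearts (-0.36 ± 0.14). Mki67, the common marker of cycling cells, had 0.05 ± 0.18. Of 25 heart growth regulators 4 were above 0 and 1 below at that level. Fgf1, a fibroblast growth factor, had 35.21, 38.43 and 36.15 CPM in Mfn2AA hearts and 6.66, 15.7, 9.361, 30.59 and 36.05 CPM in tet-off hearts (0.88 ± 0.32). Tet-off hearts 4 and 5 were close to the Mfn2AA hearts and the other 3 tet-off hearts were low.

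Markers of the other cell types of the heart were examined because the tissue is mixed, and in bulk tissue fewer cells of a type and less RNA per cell cannot be told apart. Working muscle markers were present in every library: the 10 ventricular markers summed to 57620 to 61770 CPM in Mfn2AA hearts and 55440 to 70950 CPM in tet-off hearts. All 14 tested atrial markers lay above 0 (median 0.60). Their sums were 4640, 2532 and 2070 CPM in Mfn2AA hearts and 1535, 1524, 3142, 2415 and 2860 CPM in tet-off hearts. The high value was that of Mfn2AA heart 1, and without it the median was -0.05.

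Bmp10, a ligand made by atrial muscle, had 59.67, 11.5 and 12.18 CPM in Mfn2AA hearts and 4.162, 4.841, 8.906, 6.741 and 14 CPM in tet-off hearts (1.81 ± 0.55, unadjusted p = 0.00355 in edgeR). Sln, the atrial calcium pump regulator sarcolipin, was also highest in Mfn2AA heart 1, at 46.49 CPM, against 2.031 and 9.164 CPM in the other Mfn2AA hearts and 1.296 to 17.36 CPM in tet-off hearts.

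Most matrix and fibroblast genes lay above 0, as the atrial markers did. Of 29 extracellular matrix genes 27 lay above 0 (median 0.36), and 5 (17.2%) were above 0 at an unadjusted p under 0.05. Summed, they reached 19060, 13000 and 10980 CPM in Mfn2AA hearts and 9655, 9929, 15910, 8622 and 12680 CPM in tet-off hearts. Mfn2AA heart 1 was again the highest, and without it the median was 0.08. Thbs1, thrombospondin 1 of the matrix, had 159.2, 104.5 and 53 CPM in Mfn2AA hearts and 67.64, 36.67, 69.94, 35.52 and 51.32 CPM in tet-off hearts (1.02 ± 0.34). The 12 fibroblast markers had a median of 0.32, or 0.12 without Mfn2AA heart 1, and 4 of them had an unadjusted p under 0.05 above 0. Their sums were 3956 to 7578 CPM in Mfn2AA hearts and 2849 to 5645 CPM in tet-off hearts. Pdgfra, a receptor of cardiac fibroblasts, had 53.21, 43.76 and 28.94 CPM in Mfn2AA hearts and 29.97, 26.26, 31.53, 23.98 and 26.72 CPM in tet-off hearts (0.60 ± 0.18). The part of atrial and fibroblast RNA in the values of the other lists, the oxidative phosphorylation genes included, was not tested.

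**Figure D5:**
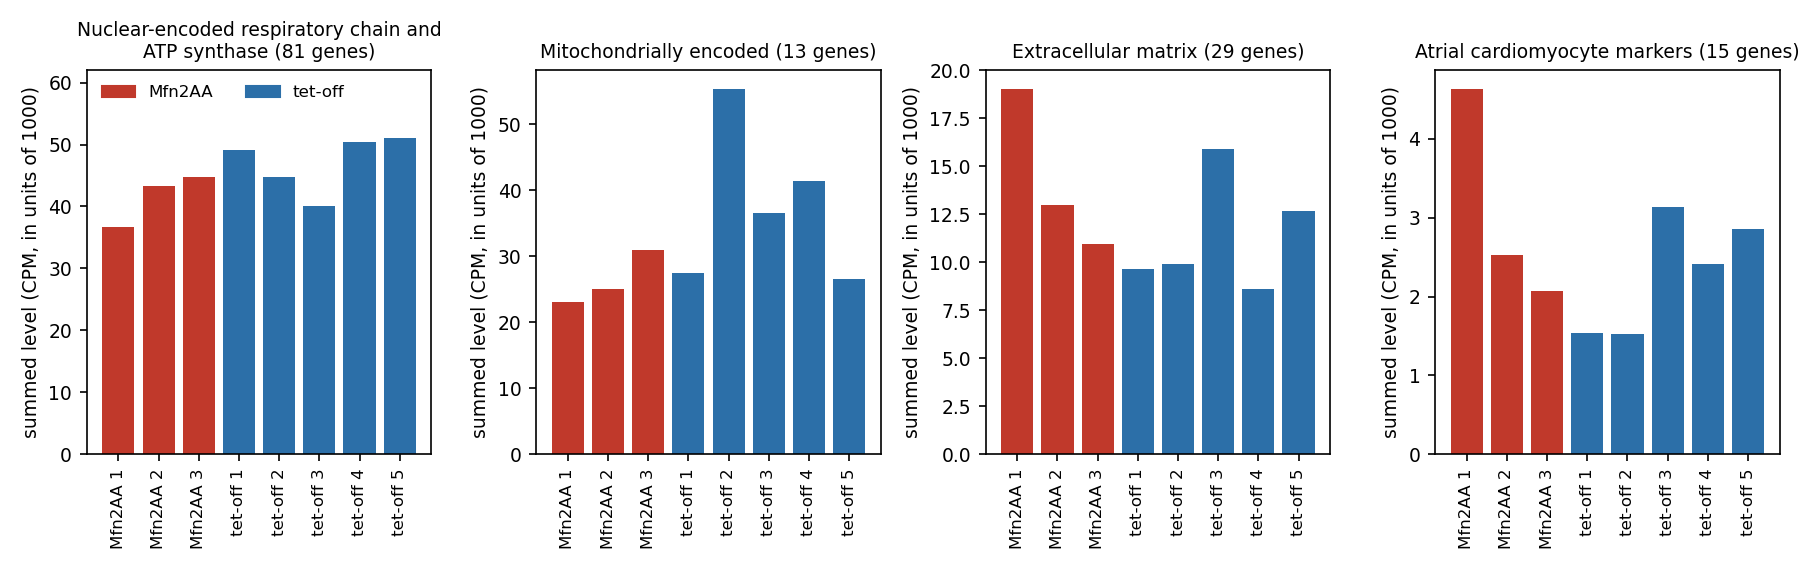
Summed level (bars, CPM divided by 1000) of the nuclear oxidative phosphorylation genes, the mitochondrially encoded genes, the extracellular matrix genes and the atrial markers (panels) in each heart, with Mfn2AA hearts on the left and tet-off hearts on the right. Mfn2AA heart 1 has the highest sums of atrial markers (4640 CPM) and extracellular matrix genes (19060 CPM), and the groups overlap in the mitochondrially encoded genes.

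Endothelial and blood markers were examined in the same way. The 13 endothelial markers had a median of 0.20, with 4 above 0 at an unadjusted p under 0.05. Without Mfn2AA heart 1 the endothelial median was 0.04, and in Mfn2AA against nontransgenic hearts it was 0.06. Vwf, von Willebrand factor, had 143.3, 98.09 and 80.42 CPM in Mfn2AA hearts and 46, 50.46, 66.3, 49.65 and 82.39 CPM in tet-off hearts (0.86 ± 0.23, unadjusted p = 0.00143 in edgeR). The 16 macrophage markers had a median of 0.19, or -0.03 in Mfn2AA against nontransgenic hearts, and sums of 132.1 to 165.6 CPM in Mfn2AA hearts and 120.7 to 147.4 CPM in tet-off hearts. Lymphocyte and thymus markers were near 0, with sums of 2.64 to 5.61 CPM in Mfn2AA hearts and 2.757 to 4.162 CPM in tet-off hearts. Cd163, a scavenger receptor of resident macrophages, had 2.478, 2.805 and 1.218 CPM in Mfn2AA hearts and 0, 0.8801, 0.52, 1.815 and 0.7422 CPM in tet-off hearts (1.43 ± 0.44). All 5 tested erythroid markers lay below 0, with sums of 69.25 to 97.07 CPM in Mfn2AA hearts and 101.2 to 152.4 CPM in tet-off hearts, and the groups did not overlap. Most of that sum was Tfrc, the transferrin receptor that imports iron into many cell types, with 35.99, 42.64 and 61.84 CPM in Mfn2AA hearts and 73.68, 86.84, 61.82, 67.02 and 68.71 CPM in tet-off hearts (-0.61 ± 0.19). Alas2, the haem synthesis enzyme of red cell precursors, had 24.98 to 28.24 CPM in Mfn2AA hearts and 27.78 to 43.13 CPM in tet-off hearts. Haemoglobin genes had 6 to 9 reads in Mfn2AA libraries and 2 to 14 reads in tet-off libraries, and Hba-a1, Hba-a2, Hbb-b1 and Hbb-b2, the adult forms, had 0 reads in all 8. Why the adult forms had no reads while Alas2 was measured was not tested, so haemoglobin counts are not taken as a measure of blood. The lung gene Sftpc reached 6.325 CPM in Mfn2AA heart 1, against 0 to 0.8416 CPM in the other Mfn2AA hearts and 0 to 1.041 CPM in tet-off hearts.

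The largest differences by size among genes with an unadjusted p under 0.05 and groups that do not overlap included several genes with few reads. Zbtb16, a zinc finger repressor also known as PLZF, had 23.02, 51.62 and 55.95 CPM in Mfn2AA hearts and 13.53, 10.12, 10.73, 10.37 and 10.39 CPM in tet-off hearts (1.99 ± 0.54, edgeR adjusted p = 0.341). Mfn2AA heart 1 was the lowest of the Mfn2AA hearts and the tet-off hearts lay close together. When the 2 groups were fitted alone, Zbtb16 passed the test (edgeR adjusted p = 0.0053). Shox2, a homeobox factor of the sinus node in mouse, had 2.021, 0.4675 and 0.6092 CPM in Mfn2AA hearts and 0 to 0.4401 CPM in tet-off hearts (2.21 ± 0.75). Cldn11, a tight junction claudin, had 0.9138 to 3.586 CPM in Mfn2AA hearts and 0.1467 to 0.8451 CPM in tet-off hearts (2.13 ± 0.59).

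On the lower side, S100a8, a calcium-binding protein of neutrophils, had 0.326, 0.4675 and 0.3046 CPM in Mfn2AA hearts and 0.5302 to 2.787 CPM in tet-off hearts (-1.84 ± 0.57). Il21r, the interleukin 21 receptor, had -1.11 ± 0.36, and Car2, a carbonic anhydrase, had 4.956, 5.985 and 7.717 CPM in Mfn2AA hearts and 8.297 to 13.06 CPM in tet-off hearts (-0.66 ± 0.18). None of these passed the adjusted test. Reads of overlapping or antisense genes cannot be told apart in these libraries, which were not strand-specific.

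The same 2 genotypes were compared in independent hearts of later ages, from left ventricle instead of whole heart. Of the 16 genes that DESeq2 called at P1, 13 had the same sign at P21, where edgeR called none of them in either direction, and 13 had the same sign at 5 weeks. At 5 weeks, where 2584 genes (18.9%) were called higher and 2197 (16.1%) lower, 8 of them were called in the P1 direction and 2, Fbxo31 and Tmtc1, in the opposite one. Foxp2 had a log2 fold change of 0.27 at P21 and 1.31 ± 0.30 at 5 weeks, and Tsc22d3 had 0.22 at P21 and 0.95 ± 0.29 at 5 weeks. Fbxo31 had 0.28 at P21 and -1.22 ± 0.16 at 5 weeks. Across the 12972 genes tested at all ages, P1 fold changes correlated with those at P21 at r = 0.192 and with those at 5 weeks at r = 0.246. These are correlations across genes, which are not independent.

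Whether the Mfn2AA minus tet-off difference itself differed between P1 and a later age was tested in 1 fit of 56 libraries. Between P1 and P21 it differed in 0 of 14610 genes (0%), with 862 at an unadjusted p under 0.05 in edgeR. Between P1 and 5 weeks it differed in 3849 genes (26.3%), with the P1 value above that of 5 weeks in 1923 (13.2%) and below it in 1926 (13.2%). Ages were prepared in separate library batches, each with its own controls, and the tissue label changes from whole heart at P1 to left ventricle at P21 and 5 weeks. Age, batch and tissue therefore cannot be told apart in these tests.

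Energy genes were among those whose fold change differed between P1 whole hearts and 5-week left ventricles. For 25 of 36 tested complex I genes the fold change at P1 was above that at 5 weeks by the interaction test, and so it was for 16 of 28 genes of complexes II to IV, 12 of 17 of ATP synthase and 26 of 34 of fatty acid uptake and oxidation. Below the 5-week value were 1 gene of the fatty acid list and none of the other 3 lists. At 5 weeks the complex I median was -0.998 with 30 of 36 genes called lower, against -0.18 with none called at P1. For Acadm the fold change was -0.05 ± 0.14 at P1 and -1.45 at 5 weeks.

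Matrix and cell cycle genes differed in the opposite direction. In 24 of 29 extracellular matrix genes and 32 of 38 cell cycle genes the P1 fold change was below that of 5 weeks, and in none above. Postn, periostin of the fibrotic matrix, had 0.50 ± 0.23 at P1 and 4.14 ± 0.81 at 5 weeks, where 28 of 29 matrix genes were called higher. Nppa had 0.34 ± 0.57 at P1 and 4.61 at 5 weeks.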

How the data were processed

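Polyadenylated RNA from P1 hearts was sequenced as single-end libraries that do not keep strand, per the labels' protocols. The submitters' processing notes name Bowtie2, TopHat2 2.0.10, HTSeq, DESeq, edgeR, Cufflinks 2.1 and mm10, without saying which step each served. The deposited table of counts holds whole reads per gene for 23429 genes, not normalised by the authors. A second deposited table holds FPKM values from the authors, which gave the human transgene.

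Genes were kept by edgeR's filterByExpr, scaled by TMM and tested with edgeR 4.0.16 (R 4.3.3) quasi-likelihood F tests in 1 fit of the 18 P1 libraries of 4 genotypes, with Benjamini-Hochberg adjustment over 13653 genes and a threshold of 0.05. CPM are TMM-scaled. No covariate was used. The interaction with age came from 1 fit of 56 libraries and 14610 genes. DESeq2 1.42.0 and limma 3.58.1 (log2(FPKM + 1), genes with a mean of at least 1 FPKM in a group) were alternatives. Scripts were tested on simulated data. Floors of 3 reads cover only the counting error of the group without reads.

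Genes were named by rule: the transgene and its pathway, every called gene, marked members of each list and the 2 further members of lowest p, genes called by DESeq2 or limma, neighbours within 500 kb of a called gene, and the 12 largest rises and 12 largest falls among genes with an unadjusted p under 0.05, groups without overlap and a mean of at least 1 CPM; unnamed gene models and sex-linked genes were left out of the last. The members and lists were chosen with earlier results of these data known. Sequences come from GENCODE transcripts on GRCm38; the deposited coordinates are on mm10, the same build.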

Additional observations from a re-analysis of the deposited data

Results flagged for a closer look

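Chance would flag about 1 in 20 independent sets of 5 values. The 31 sets of 5 tet-off values looked at come from the same 5 hearts and include 4 liver genes picked by name. Their count is therefore not set against that rate. Of these sets, 8 held a heart far from the other 4. In 7 of them it was the tet-off heart 2. Its transgene level was 155 FPKM, with 7.386 to 39.81 FPKM in the others. Olfr541 had 1.027 CPM in that heart and 0 to 0.2121 CPM in the others. Olfr45 had 0.2934 CPM (2 reads) there and 0 CPM in the others. The 4 liver genes Alb (158.9 CPM, against 0.1296 to 3.33), Afp (43.57 CPM, against 0 to 0.9101), Apoa1 (42.54 CPM, against 0.3889 to 2.914) and Ttr (11.15 CPM, against 0 to 0.78) were also highest in tet-off heart 2. Alb was at 33.19 CPM in Mfn2AA heart 1. The remaining one was Fbxo31 in tet-off heart 5, with 43.16 CPM and 31.01 to 34.33 CPM in the others.

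The Mfn2AA minus tet-off difference differed between P1 (whole heart) and 5 weeks (left ventricle) in 3849 genes by the interaction test. Of the genes that DESeq2 called at P1, 5 were among them. The P1 minus 5-week difference of their log2 fold changes was -0.92 for Baiap2, 2.24 for Enpp2, 0.55 for Ern1, 1.76 for Fbxo31 and 1.19 for Tmtc1.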

How the results depend on the processing

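Olfr541 was called in every edgeR fit run. Its log2 fold change ran from 5.11 to 7.55 over the count-based alternatives and was 3.86 and 5.71 under limma with pseudocounts of 1 and 0.1. It missed the threshold under DESeq2 (adjusted p = 0.0856) and under limma with a pseudocount of 0.1 (adjusted p = 0.0685). The count of called genes, 1, became 16 with DESeq2, 7 and 0 with limma at pseudocounts of 1 and 0.1, 2 when the groups were fitted alone, 191 against nontransgenic hearts and 16 against the mean of both control lines. Leaving out 1 library gave 1 to 22 calls, with 22 without Mfn2AA heart 3. RLE scaling, other filters, robust dispersion, all 25 libraries of the batch, and leaving out Rn45s and mitochondrially encoded genes each kept 1.

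The DESeq2 fits without 1 library and on the 2 groups alone were chosen after seeing the data. They called 0 to 76 genes when 1 library was left out and 19 in the groups alone. Leaving out 1 library, the transgene difference ran from 5.43 to 6.49 (log2). The interaction of P1 with P21 gave 3 calls when the 4 groups of the contrast were fitted alone and 0 elsewhere, and that with 5 weeks 2613 to 3851.

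The haemoglobin difference, -0.0447 CPM, was 0.19 on the log2 scale and ran from -0.184 to 0.183 CPM without 1 library, with 0.0993 CPM without Mfn2AA heart 1 and 0.183 CPM without tet-off heart 4. The Rn45s difference, -0.846 percentage points, ran from -1.81 to 0.124 without 1 library, with 0.0943 without tet-off heart 4 and 0.124 without tet-off heart 5. None of these differences passed a test, and the cause was not tested.

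The title number as a replicate block kept 1 call, Olfr541, with the groups alone (log2 fold change 6.56, adjusted p = 0.000697) and with 4 groups (6.57, adjusted p = 0.00443). The 2 groups share 2 title numbers, and deviations of the 4 same-number pairs correlated at -0.0169 to 0.17, against -0.296 to 0.305 for other pairs. The number was therefore not taken as a pairing in the main fit. These 4 pairs are few, the Rn45s share followed the number, and what the number marks was not tested. The median fold changes of 42 lists were each taken again under 11 alternatives. Of the medians so obtained, 427 stayed within the spread and 35 moved. With 3 Mfn2AA hearts and tet-off libraries as small as 4557894 reads, small changes of low genes were not detectable at this depth.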

Other observations

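A list of 20 genes known to respond to glucocorticoids in many tissues was put together after Tsc22d3, Zbtb16 and Per1 had been seen to be high, so its counts are a description of these libraries and support nothing. Of 19 tested members 16 lay above 0 (median log2 fold change 0.30), and 9 were above 0 at an unadjusted p under 0.05 in the edgeR fit (47.4%), against 5.28% of all genes. Besides those 3, Fkbp5, a chaperone partner of the glucocorticoid receptor, had 48.78, 60.78 and 74.12 CPM in Mfn2AA hearts and 32.26, 34.77, 36.6, 52.89 and 45.06 CPM in tet-off hearts (0.59 ± 0.19). Klf9, a Krüppel-like factor, had 43.56, 57.41 and 37.87 CPM in Mfn2AA hearts and 29.76, 28.9, 26.98, 19.32 and 27.25 CPM in tet-off hearts (0.81 ± 0.20), without overlap. The summed list reached 1154, 1393 and 1322 CPM in Mfn2AA hearts and 944.3, 1110, 1106, 1218 and 1193 CPM in tet-off hearts, with overlap. No member passed the adjusted edgeR test, and DESeq2 called 1, Tsc22d3.

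Zbtb16 averaged 43.5 ± 17.9 CPM in the 3 Mfn2AA hearts and 11.0 ± 1.41 CPM in the 5 tet-off hearts (SD), while the mean of the 4 Mfn2wt hearts at P1 was 52.1 CPM. The sex of the mice is not in the labels, and Xist and the Y-linked genes differed between libraries within both groups. Summed over the 6 sex-linked genes, the level was 405.9, 432.6 and 119.1 CPM in Mfn2AA hearts 1 to 3. In tet-off hearts 1 to 5 it was 100.5, 143.2, 408.7, 432.8 and 118.4 CPM. Mfn2AA heart 3 thus stood apart from the other Mfn2AA hearts, and the part of sex in the group differences was not tested.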
